A study of Mus musculus with 12 samples.

Results

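CIDEA is a protein of lipid droplets (LDs), the organelles in which cells store neutral lipids, and promotes their fusion and growth. Embryonic stem cells (ESCs) without it were compared with their parental line in all 6 CIDEA KO against all 6 WT mRNA libraries, with the time point (0, 24 or 48 h) as a covariate. The genes described are those outside one stretch of chromosome 10, from base 31332376 to base 63381704 of GRCm38. They numbered 17252 of the 17424 genes tested, and the other 172 lie in the stretch, where 93 passed the test, all 93 lower in KO. The samples described are all 12 libraries of the series.

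The WT cells were parental R1 mouse ESCs (Wild type at Cidea). The KO (Cidea -/-) was a single subclone of that line, made by CRISPR-Cas9 deletion of the whole Cidea locus, so loss of Cidea and any other property of the clone cannot be told apart. The 0 h samples were ESCs in medium with 10% FBS and LIF. The 24 h and 48 h samples were 3D spheroids in growth factor-reduced Matrigel with 15% FBS and no LIF. Each combination of genotype and time had 2 libraries, which the study describes as independent samples. The labels do not say whether they came from separate cultures, so p-values measure only the spread between these samples. Estimated counts summed to 29 to 38.5 M per library, which puts the smallest detectable level (3 counts) at 0.0779 to 0.1035 counts per M reads (CPM), for counting error only. Of the libraries, KO 24 h replicate 1 stood apart, with 15475 genes detected at equal depth against 17643 to 19648 in the other 11. In bulk RNA, fewer cells of one kind and less RNA per cell cannot be told apart.

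ESCs are kept in the naive state by LIF and serum, and leave it when LIF is withdrawn, passing through an epiblast-like state as spheroids form a lumen. They divide fast, hold p53 at high levels, and mount only a weak interferon response compared with differentiated cells. Pou5f1, the defining pluripotency factor, was at 1049 to 1580 transcripts per M (TPM) in WT and 1135 to 1711 TPM in KO libraries. Markers of other cells these cultures could hold were read beside it. The collagen gene Col1a1, a fibroblast marker, was at no more than 1.66 TPM in any library, and of the fibroblast list 1 of 29 genes rose (Cxcl12, 0.66) and 1 fell (Thy1, −0.79). The median of the fibroblast list was −0.30, with −0.0036 at 0 h, −0.53 at 24 h and −0.04 at 48 h, and 18 of 29 genes were below 0. The list's summed level was 71.8 to 110.5 TPM in WT and 60.1 to 95.4 TPM in KO libraries, and its part in the results was not tested. Of the 31 trophoblast markers 1 fell, of the 31 primitive and visceral endoderm markers 1 fell, of the 25 neural markers 1 rose and 2 fell, and of the 26 mesoderm markers none was called by edgeR. Over all genes tested outside the stretch, 1.92% were higher and 1.84% lower in KO.

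Cidea itself was read first, as the check of the labels. It had 0 counts in each of the 6 KO libraries and 20 to 117 counts in WT, with a mean of 1.87 CPM, and so was at least 18.1-fold lower in KO against the floor of 3 counts per library. Cidea lies on chromosome 18 at 67343604 to 67367785, outside the stretch.

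Outside the stretch, 648 genes (3.76% of those tested) differed between KO and WT over all times in edgeR's quasi-likelihood test at an adjusted p under 0.05. Of these, 331 (1.92%) were higher and 317 (1.84%) lower in KO. With the stretch left out before the fit 570 genes passed, 258 higher and 312 lower. DESeq2 gave 454 higher and 562 lower, and edgeR with RLE size factors 302 and 351, so which direction held more genes depended on the fit. The median log2 fold change was 0.30 for the higher genes and −0.42 for the lower, and 41 genes passed a log2 fold change of 1 in either direction. The difference had one sign at 0, 24 and 48 h in 643 of the 648 (329 higher, 1.91% of genes tested, and 314 lower, 1.82%). The 5 exceptions were Dnmt3a, Dnmt3b, Gm21761, Klf4 and Paip1. The test fits 1 difference over all times in these same libraries, so a called gene is likely to have one sign. The share of one sign among all genes tested was not counted. In 484 of the called genes (2.81%) the KO libraries lay wholly above or wholly below the WT libraries of the same time at each of the 3 times, which is called separated below. Of these 254 were higher (1.47%) and 230 lower (1.33%), while among all genes, called or not, 5.77% were separated. Leaving out 1 library gave 398 to 762 called genes in place of 648. In 84 of the 648 the 12 libraries did not overlap at all, whatever the time, with 43 of these higher and 41 lower in KO. How many genes that were not called also lacked overlap was not counted, so the 84 have no background.

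At each single time the comparison rests on 2 libraries against 2. Of the 648 genes, 422 passed the threshold at no single time. The other 226 passed it at 1 or more single times. These were counted only among the 648, called in the same libraries, so they have no background share over all genes tested. At every single time 22 passed, 7 higher and 15 lower in KO. The 7 were H3f3b, Gnas, Klf6, Tex14, Car2, Kcnj3 and Nnat. The 15 lower genes were Gm10718, Grb10, Pnma5, Fry, Ttyh3, Mt1, Klhl13, Ptgr1, Ptch1, Mt2, Fxyd6, Ldhb, Peg3, Sh3d19 and Trh. The size of the difference changed with time (a genotype by time interaction) in 9 genes outside the stretch (0.0522%), of which Lefty1 alone is among the 648.

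The 12 largest falls among called, separated genes whose log2 CPM averaged 1 or more were in genes of many functions. Gm10718 and Gm10717 lie side by side on chromosome 9, at 3023547 to 3025218 and at 3025417 to 3033289. Gm10718 was at 21.9 to 36.9 CPM (median 26.3) in WT and 0 to 0.487 CPM (median 0.156) in KO libraries, and Gm10717 at 2.20 to 6.68 CPM (median 3.81) in WT and 0 to 0.700 CPM (median 0.0495) in KO libraries. The fitted log2 fold changes were −7.20 ± 0.56 and −5.12 ± 0.72. Gm10800, on chromosome 2, was at 5.68 to 10.6 CPM (median 6.95) in WT and 0.0586 to 2.09 CPM (median 1.64) in KO libraries. In all 3, no KO library reached the lowest WT library. These predicted genes belong to a group of near-identical copies, between which Kallisto divides the reads, so the value of any single copy is uncertain.

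Grb10, an imprinted adaptor that dampens insulin and growth factor receptor signalling, had the smallest adjusted p of the 12. It was at 64.4 to 138 CPM (median 94) in WT and 13.8 to 20.7 CPM (median 17.4) in KO libraries, with no overlap between the genotypes. Its log2 fold change was −2.51 ± 0.08, adjusted p = 1.08e-14, and its values by time were −2.76 at 0 h, −2.42 at 24 h and −2.34 at 48 h. Pnma5, an X-linked gene of the paraneoplastic antigen family, was at 11.3 to 18.1 CPM (median 12.8) in WT and 2.58 to 5.10 CPM (median 3.43) in KO libraries. It did not overlap either, and its log2 fold change was −1.92 ± 0.18, adjusted p = 3.08e-07.

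Plxnc1, a semaphorin receptor, was at 2.60 to 5.44 CPM (median 3.53) in WT and 0.293 to 2.25 CPM (median 1.76) in KO libraries. Its KO libraries all lay under the WT range, with a log2 fold change of −1.50 ± 0.38, adjusted p = 0.0246. Lgals9, a galactoside-binding lectin, was at 4.73 to 12.9 CPM (median 6.99) in WT and 1.49 to 7.51 CPM (median 1.95) in KO libraries, with a log2 fold change of −1.37 ± 0.22, adjusted p = 5.24e-04. The fall of Wt1, a zinc finger transcription factor of urogenital development, was large at 24 h and small at 48 h, with values of −1.40 at 0 h, −2.30 at 24 h and −0.26 at 48 h. Igsf23 (−1.40), Arl14epl (−1.32), the mitochondrial carrier Slc25a34 (−1.26) and the antiviral enzyme gene Oas1a (−1.17) completed the 12. All were separated at every time, though the ranges over the 12 libraries overlapped for Igsf23, Lgals9, Arl14epl, Slc25a34, Wt1 and Oas1a.

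Of the 12 largest rises by the same rule, that of Nnat was the largest. Nnat, an imprinted proteolipid gene expressed in the nervous system, was at 3.39 to 8.44 CPM (median 7.22) in WT and 11.9 to 27.8 CPM (median 18) in KO libraries, with no overlap. Its log2 fold change was 1.59 ± 0.16, adjusted p = 9.70e-07, with 1.83 at 0 h, 1.15 at 24 h and 1.81 at 48 h. Bmp1, a metalloprotease that processes procollagen, was at 2.36 to 4.38 CPM (median 3.13) in WT and 4.83 to 8.07 CPM (median 6.89) in KO libraries. Its KO libraries all lay above the WT libraries, with a log2 fold change of 1.04 ± 0.20, adjusted p = 0.00380.

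Kcnj3, an inward rectifier potassium channel gene, had a log2 fold change of 1.0 ± 0.13, adjusted p = 2.23e-05. Car2, a carbonic anhydrase gene, was at 23.9 to 189 CPM (median 99.3) in WT and 40.3 to 320 CPM (median 163) in KO libraries, ranges that overlapped, and its log2 fold changes were 0.82 at 0 h, 0.71 at 24 h and 0.78 at 48 h. Aass, the first enzyme of lysine breakdown, was at 5.0 to 7.68 CPM (median 6.29) in WT and 9.97 to 14.4 CPM (median 11.2) in KO libraries, again with no overlap. The other rises among the 12 were the costimulatory ligand Cd80 (1.12), the Toll-like receptor Tlr2 (0.93), the desmosomal protein and p53 target Perp (0.86), Mageh1 (0.82), Rundc3b (0.78), Nlrp4a (0.75) and Dmrtb1 (0.73). Mageh1 lost its call in 8 of the 12 fits that left out 1 library, with 0.53 without KO 24 h replicate 1 as the lowest value, and in all 3 fits that left out 1 time point.

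**Figure D1:**
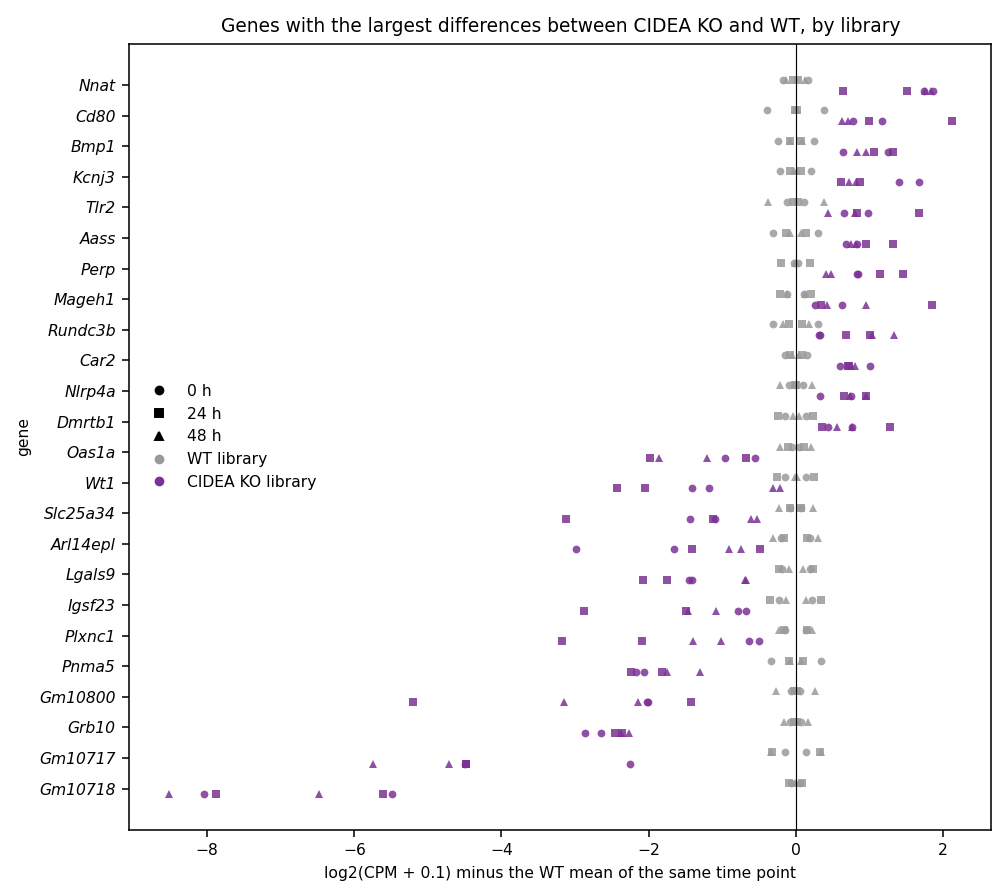
The plot shows the 12 genes with the largest fall and the 12 with the largest rise, each point being 1 library as log2(CPM + 0.1) minus the WT mean of the same time point, with grey for WT, purple for CIDEA KO, and circles, squares and triangles for 0, 24 and 48 h. For all 24 genes the KO points of a time lie on one side of its WT points. This follows from the rule, since only separated genes were picked. The largest falls (Gm10718 and Gm10717) extend further from 0 than any rise.

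Beyond single genes, 66 gene lists were counted, and 5 met the rule for description, which asks for at least 3 called members of one direction and sign at all times, few in the other direction, and a median of that sign at every time. One met it upward, p53 target genes, and 4 downward, interferon-stimulated genes, germline genes, genes of intermediate filaments, and genes of the Nrf2 and glutathione system. Over all genes tested outside the stretch, the median log2 fold change was −0.0018, with 0.0054 at 0 h, −0.017 at 24 h and 0.0016 at 48 h, and 49.6% of genes were above 0. The lists and the rule were chosen with earlier results of these data known. List counts set beside all genes are therefore descriptions and no test.

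p53 is a transcription factor that is held low by the ubiquitin ligase Mdm2 and activates genes of cell cycle arrest, apoptosis and repair when DNA is damaged. Of the 42 p53 target genes tested, 20 rose in KO and 1 fell, against 1.92% and 1.84% of all genes. The median of the list was 0.22, with 0.12 at 0 h, 0.34 at 24 h and 0.25 at 48 h, and 33 of the 42 were above 0. In 13 members the libraries were separated upward at every time, and in none downward, against 2.93% and 2.84% of all genes. Trp53, which encodes p53, did not pass the test, at 406 to 683 TPM in WT and 407 to 637 TPM in KO libraries.

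In 3 of the 20 rising members the 12 libraries did not overlap whatever the time, beside 43 of all 331 genes called higher. The 2 shares are close, and the share among all genes tested was not counted. Zmat3, an RNA-binding zinc finger protein, was at 86.8 to 92.4 CPM (median 88.9) in WT and 108 to 139 CPM (median 117) in KO libraries, with a log2 fold change of 0.43 ± 0.06, adjusted p = 6.11e-05. Psrc1, a spindle protein, was at 105 to 137 CPM (median 119) in WT and 143 to 174 CPM (median 152) in KO libraries, with a log2 fold change of 0.38 ± 0.06, adjusted p = 5.93e-04. Perp was at 8.77 to 14.5 CPM (median 13.7) in WT and 18.2 to 27.7 CPM (median 24) in KO libraries, and its log2 fold changes were 0.84 at 0 h, 1.30 at 24 h and 0.44 at 48 h. No KO library of these 3 genes came down to the highest WT library.

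Mdm2 and Mdm4, which restrain p53, and several regulators of the cell cycle rose. Mdm2 was at 99.1 to 143 CPM (median 106) in WT and 114 to 178 CPM (median 139) in KO libraries, with a log2 fold change of 0.30 ± 0.05, adjusted p = 4.26e-04. Its ranges overlapped over the 12 libraries but not within any time. Mdm4, the partner of Mdm2, rose by less (0.20 ± 0.05). Cdkn1a, the p21 inhibitor of cyclin-dependent kinases, was at 23.8 to 42.7 CPM (median 32.7) in WT and 31.7 to 54.5 CPM (median 45) in KO libraries, with a log2 fold change of 0.45 ± 0.08, adjusted p = 0.00154. The G2 regulators Ccng1 (0.27) and Gtse1 (0.22), the antiproliferative gene Btg2 (0.37) and the stress kinase Plk2 (0.32) also rose. The phosphatase Ppm1d, another negative regulator of p53 (0.11 ± 0.07), and the kinase Plk3 (−0.22 ± 0.11) did not pass.

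Of the apoptotic members, Pmaip1 (0.35), which encodes Noxa, Pidd1 (0.41), Eda2r (0.31), Aen (0.19), a nuclease of apoptosis, Phlda3 (0.36), an inhibitor of Akt, and Trp53inp1 (0.32) rose. Among other apoptotic members that did not pass were Bax at 0.13 ± 0.05 and Bbc3, which encodes Puma, at −0.03 ± 0.12. The repair genes Xpc (−0.05 ± 0.08), Ddb2 (0.15 ± 0.13) and Gadd45a (−0.04 ± 0.07) did not pass either. Sesn2 (0.29), a sensor of leucine and stress, Ptpn14 (0.49), a phosphatase, Ckap2 (0.31), a microtubule protein, and Zfp365 (0.47) made up the rest of the 20. The single member that fell was Pltp (−0.25), the phospholipid transfer protein.

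The number of p53 targets called higher depended on the libraries used. It was 19 without KO 24 h replicate 1 and between 13 and 20 when any 1 library was left out, with the fewest without WT 24 h replicate 1. It was 16 without the 4 libraries at 0 h, 8 without those at 24 h and 6 without those at 48 h. With transcript lengths as offsets it was 8, and with limma on log2 TPM it was 6. The median of the list stayed between 0.19 and 0.26 in all 27 alternatives.

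**Figure D2:**
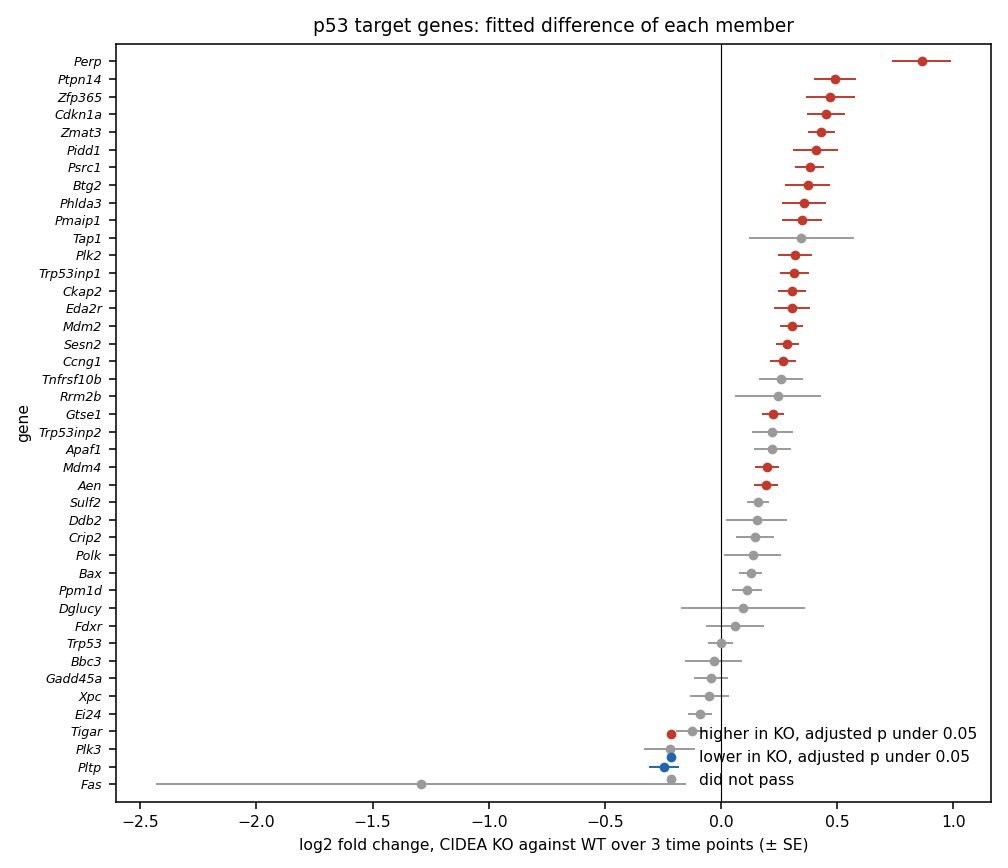
The plot shows the log2 fold change of CIDEA KO against WT over the 3 time points with its standard error for each of the 42 p53 target genes, in red where it passed upward (20), in blue where it passed downward (1) and in grey where it did not pass. The called rises lie between 0.19 and 0.86, and the single called fall is Pltp.

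Promoter sequences of members were searched for the p53 half-site, the 10-base unit of which p53 binds a pair. Among 34 p53 targets with a promoter window in RefSeq (GRCm38.p6, 250 bases before to 50 after each start, with several windows for some genes), 12 (35.3%) held a half-site on either strand, against 9.55% of 27025 genes. It was in 6 of the 17 called members and in 6 of the 17 others with a window. Among the 12350 tested genes with a window, 8.49% held a half-site. This motif was added after the called genes were known. It is shown for 4 of the called members, among them the regulator Mdm2 and the arrest gene Cdkn1a, as 60 bases that lie before the start, 5′ to 3′ on the gene's strand, with half-sites in capitals. None of these stretches overlaps a gene body in the annotation, and the capitals begin 186 bases before the start in Mdm2, 185 in Ccng1 and 203 in Ckap2. A match is a description of the letters and not evidence of binding.
Cdkn1a (chr17:29090903-29090962, plus strand): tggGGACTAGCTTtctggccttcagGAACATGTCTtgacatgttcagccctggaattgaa
Mdm2 (chr10:117710910-117710969, minus strand): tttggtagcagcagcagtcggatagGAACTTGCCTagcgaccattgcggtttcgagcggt
Ccng1 (chr11:40755437-40755496, minus strand): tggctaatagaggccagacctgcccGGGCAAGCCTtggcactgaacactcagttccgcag
Ckap2 (chr8:22185988-22186047, minus strand): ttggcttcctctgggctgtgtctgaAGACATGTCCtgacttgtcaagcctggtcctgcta

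Interferons switch on genes of antiviral defence through transcription factors that bind the interferon-stimulated response element (ISRE). Of the 46 interferon-stimulated genes tested, 5 fell in KO and 1 rose, against 1.84% and 1.92% of all genes. The median was −0.39, with −0.08 at 0 h, −0.58 at 24 h and −0.32 at 48 h, and 39 of 46 were below 0. In 7 members the libraries were separated downward at every time, and in none upward, against 2.84% and 2.93% of all genes. For 15 of the 46 the median level was under 1 TPM, and the list's summed level overlapped between the genotypes, at 1348 to 1794 TPM in WT and 1318 to 1680 TPM in KO libraries.

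Among the antiviral enzymes, Oas1a and Oas1g, which make the 2′-5′ oligoadenylates that activate RNase L, both fell. Oas1a was at 4.04 to 11 CPM (median 9.04) in WT and 1.22 to 7.19 CPM (median 3.80) in KO libraries, with a log2 fold change of −1.17 ± 0.23, adjusted p = 0.00437. Oas1g was at 2.27 to 6.03 CPM (median 4.19) in WT and 1.18 to 2.61 CPM (median 2.08) in KO libraries, with a log2 fold change of −1.11 ± 0.27, adjusted p = 0.0172. The pair are close paralogs, so reads may be divided between them. Oas2 (−0.71 ± 0.30), Oas3 (−0.39 ± 0.29) and Oas1c (−0.19 ± 0.32) did not pass.

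Zbp1, a sensor of Z-form nucleic acids, was at 0.891 to 7.12 CPM (median 1.36) in WT and 0 to 2.18 CPM (median 0.410) in KO libraries, some KO libraries having none. Its log2 fold change of −2.21 ± 0.50 rests on 597 counts in all WT and 136 in all KO libraries. Igtp, an interferon-induced GTPase, was at 0.906 to 14.1 CPM (median 5.49) in WT and 0.385 to 11.2 CPM (median 1.79) in KO libraries, with a log2 fold change of −1.02 ± 0.24, adjusted p = 0.0142. Ifi35 was at 4.56 to 18.2 CPM (median 7.10) in WT and 1.82 to 10.3 CPM (median 3.44) in KO libraries, with a log2 fold change of −0.95 ± 0.19, adjusted p = 0.00405. In all 3 genes the KO libraries lay under the WT libraries at each time, while the ranges over the whole series overlapped.

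Ifitm3, a membrane protein that blocks viral entry and is abundant in pluripotent cells, went the other way. It was at 37.6 to 75.8 CPM (median 51.4) in WT and 55.5 to 81 CPM (median 60.4) in KO libraries, with a log2 fold change of 0.33 ± 0.09, adjusted p = 0.0314. Of the transcription factors of the pathway, Stat2 at −0.09 ± 0.09, Irf9 at −0.23 ± 0.14 and Irf1 at −0.27 ± 0.09 did not pass. Nor did Rnf213 (−0.69 ± 0.17, adjusted p = 0.0618) and Ifitm1 (−0.28 ± 0.08, adjusted p = 0.0678). Of the interferon-induced GTPase genes that did not pass, Gbp3 was at −2.27 ± 0.76 and Tgtp1, whose difference changed with time, at −2.96 ± 1.01.

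The interferon-stimulated count was 9 without KO 24 h replicate 1 and 4 to 9 when any 1 library was left out. It was 2 without the 0 h libraries, 5 without the 24 h libraries and 2 without the 48 h libraries. The per-library medians of the list, as log2 CPM minus the WT mean of the time, were −0.17 and −0.14 in KO at 0 h, −0.67 and −0.45 at 24 h, and −0.17 and −0.49 at 48 h, so all 6 KO libraries were below the WT mean. The WT libraries were within 0.03 of it. The fibroblast markers, 15 of 29 of them under a median of 1 TPM, had medians on the same scale of −0.84 in KO 24 h replicate 1 and −0.26 to −0.01 in the other KO libraries, and their part in this result was not tested.

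**Figure D3:**
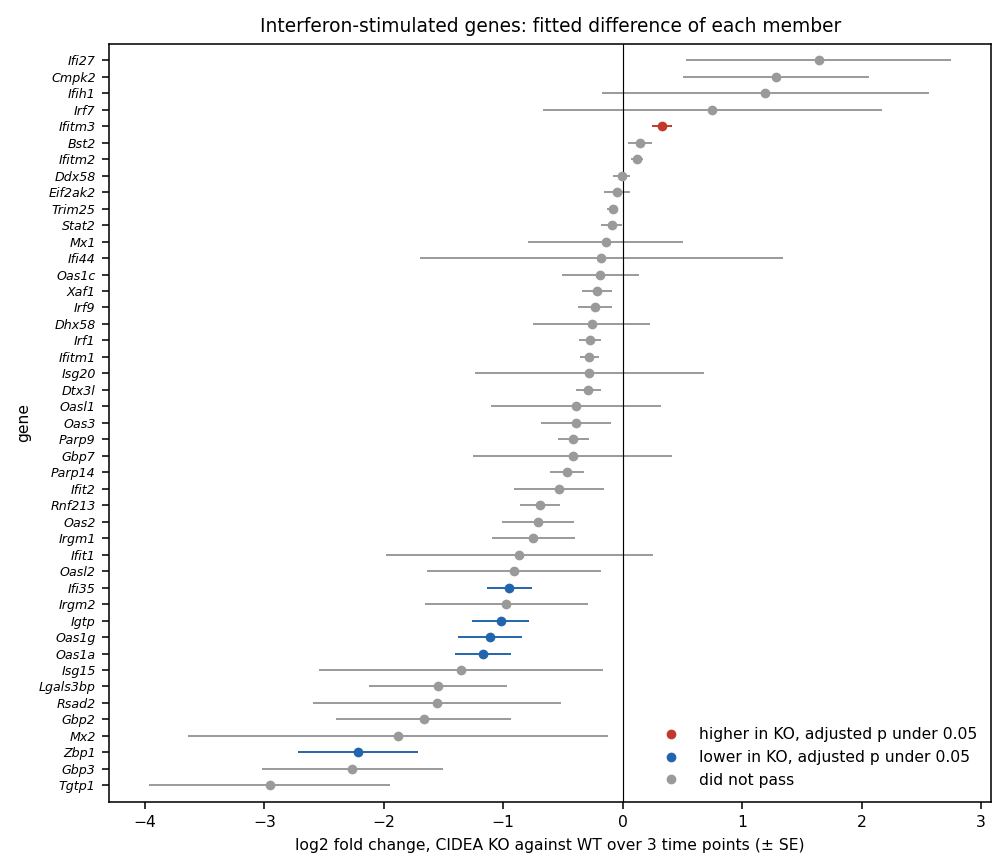
The plot shows the log2 fold change of CIDEA KO against WT over the 3 time points with its standard error for 45 of the 46 interferon-stimulated genes, with 5 members in blue (lower in KO), 1 in red (Ifitm3, higher) and 39 in grey that did not pass. Of the 45 points, 38 lie left of 0.

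The ISRE, searched as GAAANNGAA on both strands, was in 23 of 37 interferon-stimulated genes with a window (62.2%) against 9.76% of all 27025 genes. It was in 4 of the 5 members called in either direction that have a window and in 19 of the 32 not called. Among the 12350 tested genes with a window, 8.59% held the ISRE. The windows of Oas1a, Oas1g, Igtp and the rising Ifitm3 held it, and that of Ifi35 did not. Shown, because they carry the ISRE letters, are the 60 bases before the start in the 3 falling members, 5′ to 3′ on the gene's strand (GRCm38.p6, RefSeq), outside gene bodies, with those letters in capitals. Matches overlap in Oas1a and Oas1g, whose stretches are almost the same.
Oas1a (chr5:120907526-120907585, minus strand): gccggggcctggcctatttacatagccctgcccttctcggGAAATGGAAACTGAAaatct
Oas1g (chr5:120887614-120887673, minus strand): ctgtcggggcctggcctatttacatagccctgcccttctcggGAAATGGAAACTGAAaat
Igtp (chr11:58199496-58199555, plus strand): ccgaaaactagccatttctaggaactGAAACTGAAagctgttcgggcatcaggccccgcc

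Many germline genes are kept silent in ESCs by promoter methylation and repressor complexes. Of the 35 tested, 5 were lower and 1 higher in KO, against 1.84% and 1.92% of all genes. The number lower was 1 with transcript lengths as offsets and with either limma fit on log2 TPM, and 0 without the 0 h libraries. The median was −0.30, with −0.53 at 0 h, −0.27 at 24 h and −0.02 at 48 h, and 26 of 35 were below 0. Smc1b, the meiotic cohesin subunit, was at 5.60 to 11.2 CPM (median 8.08) in WT and 1.65 to 5.93 CPM (median 4.91) in KO libraries, with a log2 fold change of −1.04 ± 0.20, adjusted p = 0.00317. Sycp3, a protein of the synaptonemal complex, had a log2 fold change of −0.77 ± 0.16, adjusted p = 0.00743. Hormad2, of the meiotic chromosome axis, was at 4.04 to 6.64 CPM (median 5.88) in WT and 1.90 to 3.58 CPM (median 3.06) in KO libraries, without overlap, and had a log2 fold change of −0.97 ± 0.24, adjusted p = 0.0197.

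The testis tubulin Tuba3a (−0.62 ± 0.11) and the transcription factor Dmrt1 (−0.41 ± 0.09) were the other members that fell, each separated at every time. Kit, the receptor that germ cells need and that ESCs also express, rose (0.26 ± 0.07, adjusted p = 0.0483), although its value at 0 h was 0.01. Dazl, an RNA-binding protein of germ cells, was at 4.12 to 10.5 CPM (median 6.58) in WT and 2.83 to 6.66 CPM (median 4.46) in KO libraries and was separated at every time, but did not pass (−0.52 ± 0.18, adjusted p = 0.115). Levels in this list were low, with 7 of 35 members under a median of 1 TPM. Without the 0 h libraries no member was called lower, and the list's median was −0.15, while without the 48 h libraries it was −0.45.

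An E-box (CACGTG), to which repressors of germline genes bind in ESCs, was in 14 of the 31 germline genes with a window (45.2%). The share was 8.09% of all 27025 genes and 10.9% of the 12350 tested genes with a window. Of the 5 members called in either direction that have a window, 1 held it, Sycp3.

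Of the 22 genes for keratins and intermediate filaments, 3 fell in KO and none rose by edgeR, against 1.84% and 1.92% of all genes. As log2 CPM minus the WT mean of the time, the list's library medians were −0.36 to −0.02 in KO. They were −0.13 to 0.13 in WT, so the genotypes overlapped. Vim, which encodes vimentin, was at 66.3 to 227 CPM (median 119) in WT and 52.9 to 161 CPM (median 102) in KO libraries, and its log2 fold changes were −0.53 at 0 h, −0.22 at 24 h and −0.33 at 48 h. Over all times this was −0.36 ± 0.05, adjusted p = 2.18e-04, separated at each time although the ranges over the 12 libraries overlapped. Lmna, the A-type lamin of the nuclear envelope, had a log2 fold change of −0.39 ± 0.11, adjusted p = 0.0488. Ina, a neuronal intermediate filament gene, had −0.27 ± 0.07, adjusted p = 0.0373. The epithelial pair Krt8 (0.22 ± 0.11) and Krt18 (−0.29 ± 0.29) did not pass. The median of the list was −0.11, with values of −0.04, −0.19 and −0.11 at 0, 24 and 48 h. The number called was 1 to 3 when 1 library was left out, with 1 without any of KO 48 h replicate 1, KO 24 h replicate 2, WT 0 h replicate 1, either WT 24 h library or WT 48 h replicate 2, and 0 with limma on log2 TPM.

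Nrf2 drives genes that make glutathione and remove peroxides. Of the 52 genes of this list, 4 fell and 1 rose, against 1.84% and 1.92% of all genes. The median was −0.07, close to 0 at 48 h (−0.004). As log2 CPM minus the WT mean of the time, the list's library medians were −0.12 to −0.02 in KO. They were −0.04 to 0.04 in WT, so the genotypes overlapped. Prdx6, a peroxidase of phospholipids, was at 152 to 270 CPM (median 232) in WT and 110 to 225 CPM (median 176) in KO libraries, with a log2 fold change of −0.31 ± 0.05, adjusted p = 9.98e-04. Blvrb, a biliverdin reductase, was at 16.6 to 21.8 CPM (median 19.6) in WT and 10.9 to 17.3 CPM (median 15.5) in KO libraries, with −0.41 ± 0.11, adjusted p = 0.0318. Gstm1, a glutathione transferase, was at 40.9 to 56.2 CPM (median 51.4) in WT and 37.1 to 50 CPM (median 39.9) in KO libraries, with −0.28 ± 0.08, adjusted p = 0.0334. These 3 were separated at every time.

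Gpx4, which reduces lipid peroxides, fell over all times (−0.31 ± 0.07, adjusted p = 0.0236), with −0.49 at 0 h, −0.42 at 24 h and −0.01 at 48 h. Hmox1, which degrades haem, rose and was at 89.6 to 129 CPM (median 95.2) in WT and 113 to 155 CPM (median 124) in KO libraries, with 0.32 ± 0.05, adjusted p = 8.77e-04. Direct Nrf2 targets such as Nqo1 (−0.17 ± 0.08), Gclc (−0.15 ± 0.07), Gclm (0.03 ± 0.06) and Txnrd1 (0.04 ± 0.04) did not pass. Hmox1 lies on chromosome 8, which is described below. The Nrf2 element TGACNNNGC was in none of the 3 called members with a window and in 12 of the 42 others. The share was 14% of all 27025 genes and 16.3% of the 12350 tested genes with a window. The number called lower was 7 without KO 24 h replicate 1 and 1 without either WT 24 h library. It was 2 without either KO 0 h library, KO 48 h replicate 2, WT 0 h replicate 1 or WT 48 h replicate 2, and 0 with limma on log2 TPM.

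**Figure D4:**
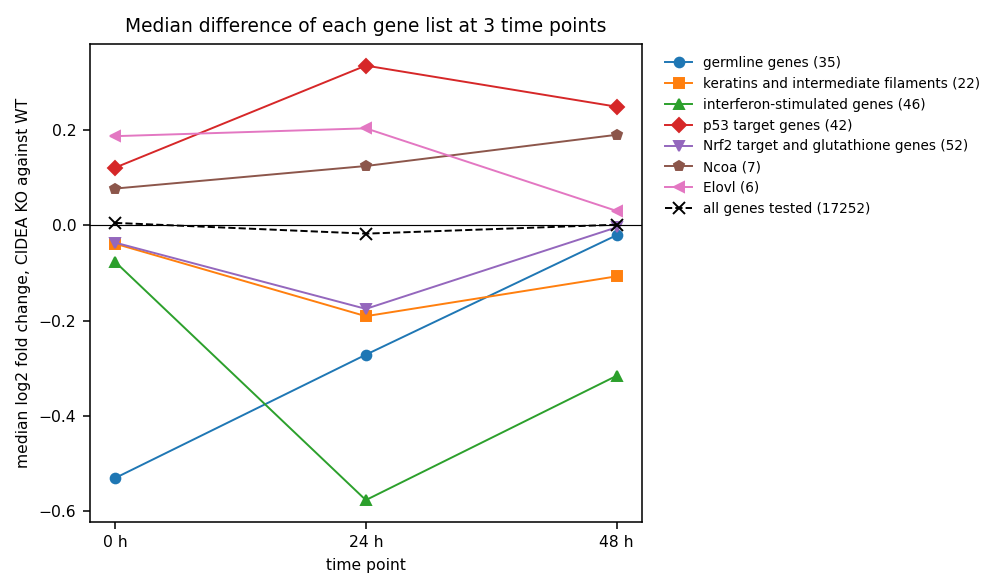
The plot shows the median log2 fold change of CIDEA KO against WT at 0, 24 and 48 h (lines join the 3 medians of a list) for the 5 described lists, the Ncoa and Elovl families and all 17252 genes, with the number of members in brackets. The p53 targets, Ncoa and Elovl medians are above 0 at each time, the other 4 lists below 0, and all genes between −0.017 and 0.0054. The rule for description asks for a median of one sign at every time. The side of 0 on which each plotted list or family lies is therefore fixed by that rule.

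Symbol families, that is genes sharing a name stem, were scanned in 523 sets with at least 5 members, of which 4 met the same rule, all upward. The Elovl family, which carries out the first step of fatty acid elongation, had 3 of 6 members higher, against 1.92% of all genes. Elovl4 was at 14.3 to 21.8 CPM (median 16.1) in WT and 17 to 27.5 CPM (median 21.9) in KO libraries, with 0.38 ± 0.10, adjusted p = 0.0245. Elovl5, which elongates polyunsaturated acids, was at 71.5 to 84.4 CPM (median 75.5) in WT and 81.4 to 95.9 CPM (median 88.2) in KO libraries, with 0.22 ± 0.05, adjusted p = 0.0228, and Elovl6, which elongates palmitate, was at 154 to 212 CPM (median 192) in WT and 168 to 243 CPM (median 215) in KO libraries, with 0.17 ± 0.05, adjusted p = 0.0486. All 3 were separated at each time. Elovl1 (0.12 ± 0.12), Elovl2 (0.06 ± 0.15) and Elovl7 (−0.60 ± 0.28) did not pass. The number called was 0 to 2 when any 1 library was left out, with 0 without KO 0 h replicate 1, KO 48 h replicate 1 or WT 0 h replicate 1. It was 0 without the libraries of any 1 time point and with transcript lengths as offsets.

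The Ncoa genes, most of which encode coactivators of nuclear receptors, had 3 of 7 members higher, against the same 1.92%. Ncoa7 was at 15.1 to 24.8 CPM (median 17.5) in WT and 18.8 to 42.7 CPM (median 23.2) in KO libraries, with 0.50 ± 0.10, adjusted p = 0.00439, and Ncoa1 was at 29.6 to 57 CPM (median 44.6) in WT and 37.6 to 66.2 CPM (median 51.5) in KO libraries, with 0.23 ± 0.06, adjusted p = 0.0495. Ncoa3, a coactivator that supports Esrrb in ESCs, rose by 0.16 ± 0.04 on the log2 scale. Ncoa7 lies on chromosome 10 from 30628999 to 30803326, before the stretch. The number called was 1 to 3 when 1 library was left out, and 3 only without KO 24 h replicate 1 or WT 48 h replicate 1. It was 0 without the 24 h libraries and 0 with transcript lengths as offsets. The other sets, Cdc with 3 of 23 (Cdc42, Cdc23 and Cdc42bpg) and Fam with 4 of 142 (Fam53b, Fam129a, Fam234b and Fam222b), share a naming scheme and not an origin, and their medians were 0.07 and 0.06. With 1 library left out, 1 to 4 Cdc and 1 to 5 Fam members were called, and the Fam share is near the 1.92% of all genes.

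Other lists had called members without meeting the rule, and their counts stand beside 1.92% of all genes higher and 1.84% lower. The integrated stress response, in which the factor Atf4 switches on amino acid genes, had 7 of 40 members higher and none lower by edgeR, yet a median of −0.007 at 24 h. Atf4 was at 74.5 to 184 CPM (median 81.4) in WT and 91 to 261 CPM (median 103) in KO libraries, with 0.37 ± 0.05, adjusted p = 8.99e-05, separated at each time. The rest were the transporter genes Slc7a1 (0.43) and Slc3a2 (0.26), the synthesis enzymes Psat1 (0.18) and Mthfd2 (0.30), the tRNA synthetase Aars (0.24) and Sesn2, which is also counted among the p53 targets.

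Imprinted genes moved both ways, with 7 of 50 higher and 4 lower, against 1.92% and 1.84% of all genes. Besides Nnat, the rises were in Zrsr1 (0.46), Gnas (0.35), Impact (0.31), Cd81 (0.20), Slc38a4 (0.19) and Nap1l4 (0.15). Besides Grb10, the falls were in Peg3 (−0.50), Mest (−0.22) and Snrpn (−0.21). Gnas, the stimulatory G protein gene, was at 161 to 194 CPM (median 176) in WT and 212 to 252 CPM (median 221) in KO libraries, with no overlap.

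The zinc-binding metallothioneins Mt1 and Mt2 fell at every single time. Mt1 was at 82.1 to 174 CPM (median 117) in WT and 43.9 to 97.6 CPM (median 75.5) in KO libraries, with −0.81 ± 0.06, adjusted p = 2.02e-08, and Mt2 at 198 to 296 CPM (median 218) in WT and 125 to 200 CPM (median 152) in KO libraries, with −0.61 ± 0.06, adjusted p = 2.31e-07. With them fell the zinc exporter Slc30a2 (−0.62), while the importer Slc39a6 rose (0.30), making 3 lower and 1 higher of 31 in that list. Of the 32 glycolysis genes 4 fell, Ldhb (−0.59), Pdha1 (−0.27), Pgk1 (−0.27) and Pdk1 (−0.23), and none rose by edgeR, against 1.84% and 1.92% of all genes. The list's median was positive at 48 h, 0.02, so the rule was not met.

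Lipid genes were counted in several lists, against 3.76% of all genes called. Of the 40 lipid droplet and triglyceride genes Cidea and Fabp3, a fatty acid binding protein (−0.50 ± 0.11, adjusted p = 0.0207), fell, and the median was 0.05. Of the 37 fatty acid oxidation genes 4 passed, of which the carnitine transferase Cpt1a (−0.31) and Acads (−0.44) fell and Cpt1c (0.52) and Ppard (0.43) rose. Of the 33 cholesterol synthesis genes 1 fell, and no sphingolipid gene of 30 was called by edgeR. Of the 30 fatty acid synthesis and elongation genes 3 rose, the Elovl genes described above, and the mitochondrial citrate carrier Slc25a1 (−0.22) fell.

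Genes of epithelial form went both ways, beside 1.92% of all genes higher and 1.84% lower. In the apical polarity and lumen list 4 of 37 rose, the actin linkers Ezr (0.27) and Rdx (0.18) and the GTPases Rac1 (0.21) and Cdc42 (0.19), and 3 fell, the tight junction protein Cgn (−0.45), the syntaxin Stx3 (−0.23) and Msn (−0.18). Of the 30 adherens and desmosome genes the desmosomal Perp, Dsg2 (0.48) and Dsp (0.43) rose, and Pkp2 (−0.47) and Jup (−0.19) fell. Among cell cycle genes the D cyclins were split, Ccnd1 (0.32) and Ccnd3 (0.28) rising and Ccnd2 (−1.10) falling. In the class I list H2-K1 (0.41) and H2-D1 (0.49) rose while the immunoproteasome activators Psme1 (−0.32) and Psme2 (−0.32) fell. In the two-cell-like list, Zscan4c and Zscan4e fell, from 273 and 294 counts in all WT to 14 and 22 in all KO libraries, and the Zscan4 copies are near-identical.

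The share of genes called higher differed by chromosome. On chromosome 8, 51 of the 896 genes tested were higher in KO (5.69%) and 12 lower (1.34%), against 1.23% to 2.84% higher on the other 19 chromosomes without Y. Over the 683 genes of chromosome 8 that reached 10 counts in all 12 libraries, the median log2 fold change was 0.06, a difference of 4.24%, and the medians of the other chromosomes were −0.01 to 0.03. Each of the 6 KO libraries showed it, at 0.049 to 0.080 above the WT mean of its time, and the WT libraries were within 0.012 of that mean. On the same measure the KO libraries were at −0.0028 to 0.064 on chromosome 1 and −0.037 to 0.066 on X. Single KO libraries of other chromosomes thus reached into the range of chromosome 8. In 13 windows of 10 Mb along chromosome 8 the medians were all above 0, from 0.032 to 0.19. In all 27 alternatives the difference from the other chromosomes stayed between 0.047 and 0.061.

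The called rises on chromosome 8 included Itgb1, the integrin beta-1 subunit by which cells hold to laminin, at 220 to 269 CPM (median 260) in WT and 240 to 355 CPM (median 325) in KO libraries, with 0.30 ± 0.05, adjusted p = 2.80e-04. Slc7a6, an amino acid transporter, was at 51.7 to 74.8 CPM (median 57.7) in WT and 75.6 to 90.5 CPM (median 83.9) in KO libraries, with no overlap. The mannosidase Man2b1 (0.34), the Trithorax-group subunit Ash2l (0.23), Kbtbd11 (0.48), Atp11a (0.47) and Cbfb (0.31) rose too. Of the genes described above, Hmox1, Ckap2 and Aars are on this chromosome and rose by more than its median, while Mt1 and Mt2, also on it, fell. The part of the chromosome in these differences was not tested. Without chromosome 8, 280 genes (1.71%) were higher in KO.

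**Figure D5:**
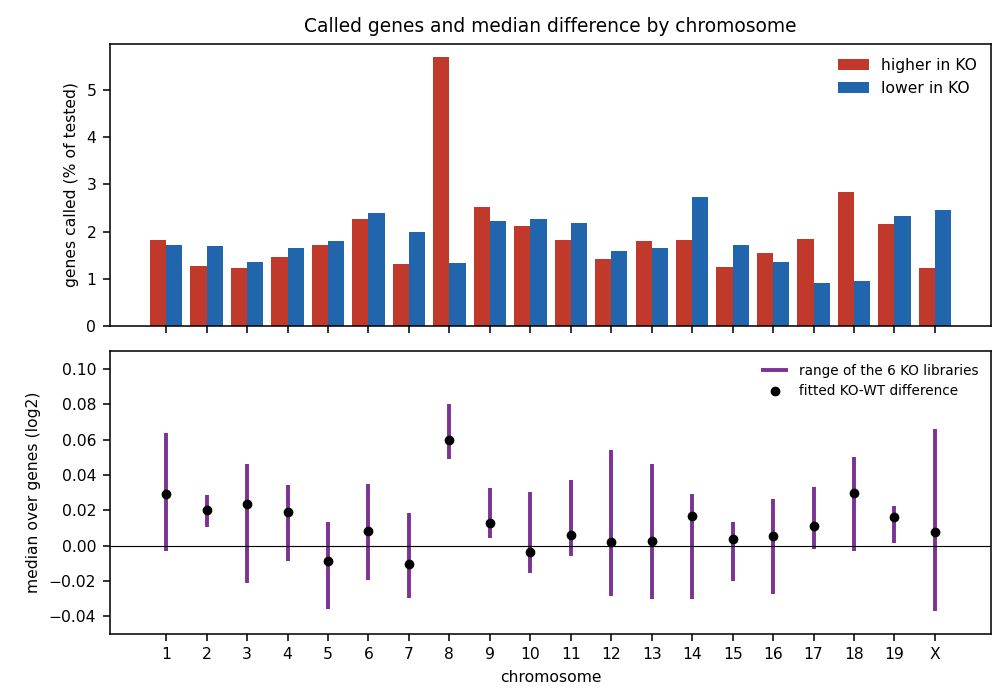
The upper bars show the percentage of tested genes called higher (red) or lower (blue) in CIDEA KO on each chromosome, with 5.69% higher on chromosome 8. The lower panel shows the median log2 difference over genes that reached 10 counts in all 12 libraries, as the fitted KO-WT value (black points) and the range over the 6 KO libraries relative to the WT mean of each time (purple lines), and the line for chromosome 8 starts above the fitted value of every other chromosome. The lines for chromosomes 1 and X end at 0.064 and 0.066, above the start of the line for chromosome 8.

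At the borders of the chromosome 10 stretch the nearest genes differed by side. Hddc2, ending 4172 bases before it, was at −0.12 ± 0.09 and did not pass. Dnajc12, a DnaJ chaperone starting 739 bases after it, was lower in KO (−0.78 ± 0.22, adjusted p = 0.0464) and is counted in the 648. Just inside, Tpd52l1 was at −0.74 and Sirt1 at −0.71.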

How the data were processed

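RNA of 12 samples was sequenced (TruSeq Stranded mRNA). Per the labels, the authors used Trimmomatic 0.33 and kallisto 0.43.1 and deposited an estimated count and a TPM for each of 115270 transcripts. Estimated counts were summed per gene through GENCODE M21 (GRCm38), which matched 98.5% of transcripts (0.659% to 0.709% of counts were unmatched), and rounded. Lowly expressed genes were removed with filterByExpr, and edgeR 4.0.16 (TMM, robust quasi-likelihood F-test, R 4.3.3) was fitted to all 12 libraries with time as a covariate, two-sided, with Benjamini-Hochberg adjustment over all 17424 genes. Errors beside log2 fold changes are standard errors. The study's sources state no test for these data. DESeq2 1.42.0 and limma 3.58.1, on log2 of the deposited TPM plus 1 or 0.1, were alternatives. Named genes were Cidea, the 12 largest rises and falls among called, separated genes whose log2 CPM averaged 1 or more, and up to 4 members of each described list or family by adjusted p. Other members are given to account for the lists. The members, the gene lists and this rule were chosen with earlier results of these data known. In tests on simulated data of this comparison, 48 of 67 genes changed by 0.5 on the log2 scale were recovered (71.6%), and 12 unchanged genes were called. The changed genes had an average log2 CPM of 1 or more, and no library was made to stand apart. The share recovered does not cover genes at lower levels. Some items are not reported here.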

Additional observations from a re-analysis of the deposited data

Results flagged for a closer look

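For 9 genes outside the chromosome 10 stretch (0.0522% of those tested), the size of the KO-WT difference changed with time in edgeR's quasi-likelihood test of the genotype by time interaction, so that 1 value for all times does not describe them. Grhl2, an epithelial transcription factor, was at −1.23, −0.11 and 0.02 on the log2 scale at 0, 24 and 48 h (adjusted p = 0.0027). Otx2, a transcription factor of the primed epiblast, was at −0.95, −0.15 and 0.09 on the log2 scale at 0, 24 and 48 h (adjusted p = 0.0045). Pou3f1, a POU factor of the epiblast and neural ectoderm, was at 0.70, −1.24 and −0.35 on the log2 scale at 0, 24 and 48 h (adjusted p = 0.0045). Tgtp1, an interferon-induced GTPase, was at 2.80 and 1.11 CPM in WT and 0.243 and 0.175 CPM in KO at 0 h, 3.74 and 3.06 CPM in WT and 0 and 0 CPM in KO at 24 h, and 6.38 and 7.91 CPM in WT and 6.56 and 3.78 CPM in KO at 48 h (adjusted p = 0.014). Lin28a, an RNA-binding inhibitor of let-7, was at −0.53, −0.02 and 0.10 on the log2 scale at 0, 24 and 48 h (adjusted p = 0.014). Gm7332, a predicted gene, was at 4.15 and 0.503 CPM in WT and 2.19 and 1.12 CPM in KO at 0 h, 3.09 and 0.534 CPM in WT and 0 and 0 CPM in KO at 24 h, and 0 and 0 CPM in WT and 5.92 and 6.03 CPM in KO at 48 h (adjusted p = 0.016). Lef1, a Wnt pathway transcription factor, was at −2.03, −0.92 and 0.20 on the log2 scale at 0, 24 and 48 h (adjusted p = 0.016). Dnmt3l, a cofactor of de novo DNA methylation, was at −0.43, −0.17 and 0.27 on the log2 scale at 0, 24 and 48 h (adjusted p = 0.028). Lefty1, an inhibitor of Nodal, was at −1.0, −1.39 and −0.30 on the log2 scale at 0, 24 and 48 h (adjusted p = 0.029). The 9 are the genes with an adjusted p under 0.05, and 972 genes had an unadjusted p under that value. Without KO 24 h replicate 1 the number was 30, without KO 24 h replicate 2 it was 756, and without WT 24 h replicate 1 it was 2.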

How the results depend on the processing

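The number of genes that differed over all times, 648, was 1016 with DESeq2, 1039 without the filter on low counts, 185 with transcript lengths as offsets and 137 with limma on either log2(TPM + 1) or log2(TPM + 0.1). It was 250 without the 0 h libraries, 322 without the 24 h libraries and 352 without the 48 h libraries. Leaving out 1 library gave 398 (without WT 24 h replicate 2) to 762 (without KO 24 h replicate 1). It was 428 without KO 0 h replicate 2 and 414 without WT 24 h replicate 1. Genes of one sign numbered 990 with DESeq2, 185 with length offsets, 137 with either limma fit, and 397 to 750 with 1 library left out. The interaction gave 60 genes with DESeq2, 184 without the filter, 14 with the number of detected genes as a covariate, and 2 to 756 with 1 library left out. With length offsets edgeR gave 0, where 825 genes had an unadjusted p under 0.05. The cause of these shifts was not tested.

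Same-numbered samples did not pair, since their deviations from the group means correlated at 0.0038, 0.050 and −0.0085 at 0, 24 and 48 h. With the replicate number as a block, 608 genes differed, and 583 with a block within each time, where the interaction gave 23 genes and the median of the intermediate filament genes was −0.21. That median was −0.24 where all 12 libraries had to reach 10 counts and −0.23 with detected genes as a covariate, and −0.22 to −0.10 with 1 library left out. The germline median was −0.21 with length offsets, −0.19 with limma on log2(TPM + 1), −0.15 without 0 h, −0.45 without 48 h and −0.38 to −0.23 with 1 library left out. The interferon median was −0.16 with limma on log2(TPM + 1) and −0.24 without 24 h. The Nrf2 median was −0.0295 without 24 h and −0.11 without 48 h. The Cdc median was 0.0238 without 0 h or without 24 h and 0.0243 to 0.0832 with 1 library left out. The Ncoa median was 0.0559 with length offsets, 0.0644 with limma on log2(TPM + 1) and 0.0651 on log2(TPM + 0.1). The p53 target median stayed between 0.19 and 0.26.

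No value changed sign among 1480 values of 55 named genes, of which 381 lost the call, and 14 genes were called in every alternative. The named genes were picked as called with one sign at all times in these same libraries. The lack of sign changes is therefore largely fixed by that choice and is no measure of stability. For lists and named genes the time point exclusions, and all of the chromosome 8 values, were added after seeing the data. With 2 libraries per group, small differences at low counts were not detectable at this depth.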

Other observations

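The secretory gene lists described next were chosen after the values were seen, so they get counts and medians only, beside 1.92% of all genes higher and 1.84% lower. Of 45 genes of the ER translocon, signal peptidase and N-glycosylation, through which secreted and membrane proteins enter the ER, 10 were higher in KO and 1 lower in edgeR's test, with a median log2 fold change of 0.12 and 36 above 0. The rises included the translocon subunit Sec61a1 (0.17), the signal peptidase subunit Spcs3 (0.22), the oligosaccharyltransferase subunits Rpn1 (0.19), Rpn2 (0.21) and Ddost (0.16), and Kdelr1 (0.23), which returns ER proteins from the Golgi. The fall was in Srpr (−0.37), the receptor of the signal recognition particle. The number higher was 3 (without WT 48 h replicate 2) to 11 (without KO 24 h replicate 1) with 1 library left out, and 0 without the 48 h libraries. Of 39 genes of COPI and COPII vesicles, which carry cargo between ER and Golgi, 5 were higher, Sec24b (0.25), Uso1 (0.23), Arf3 (0.23), Tmed9 (0.22) and Arcn1 (0.17), with a median of 0.08 and 34 above 0. That number was 3 without KO 24 h replicate 2, WT 24 h replicate 2 or WT 48 h replicate 2, and 0 without the 0 h or the 48 h libraries.

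Bace2, a protease gene, had 0 counts in every WT library and 1 to 61 counts in the KO libraries. Bace2 was picked out after its values were seen.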
